A study of Mus musculus with 16 samples.

Results

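The Krüppel-like factor (KLF) family was followed through the activation of a mouse T helper 2 line, with and without inhibition of the kinase Akt. The list held 10 genes of the family, Klf2, Klf3, Klf4, Klf6, Klf7, Klf9, Klf10, Klf11, Klf12 and Klf13, and members were found by their gene symbol in a table of 18138 genes. Of these 10 genes, 9 had an entry. Klf6, Klf7 and Klf13 were above the negative controls on all 16 arrays, and the other 6 genes with an entry, Klf2, Klf4, Klf9, Klf10, Klf11 and Klf12, were above them on none. Under Akt inhibition Klf6 stayed high where control cells lost most of its signal, Klf7 stayed high at 12 h where control cells had returned to the starting level, and no effect on Klf13 passed the test.

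KLF proteins are transcription factors whose C-terminal zinc fingers bind GC-rich and CACCC sequences, while the differing N-terminal parts recruit coactivators or corepressors. In T cells the best known member is Klf2, which keeps resting cells quiescent and maintains receptors of lymphocyte traffic. Klf2 is driven by FOXO transcription factors, and Akt phosphorylates FOXO proteins and so keeps them out of the nucleus.

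The cells were D10, a fast-growing variant of a single Th2 clone, kept in IL-2, so the results describe 1 cell line. There were 8 groups of 2 arrays each. Control cells were not pretreated, or received solvent (the paper's methods and results differ on this point). The other cells were first exposed for 1 h to 10 µM Akti1/2, an allosteric inhibitor of Akt1 and Akt2. Both arms were then stimulated through CD3 and CD28, with biotinylated antibodies and streptavidin, and RNA was taken at 0, 2, 6 and 12 h. Neither the labels nor the paper say whether the 2 arrays of a group came from separate cultures, so the p-values measure only the spread between these arrays, which may be technical. RNA was measured in bulk, so fewer cells of a kind and less RNA per cell cannot be told apart.

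The arrays were Illumina mouse RefSeq bead chips, and intensities are on a linear scale as the scanner software gave them. A gene counted as above background on an array when under 0.01 of the 798 negative controls, which match no mouse gene, were as bright as it was (this share is the detection p). Between 6288 and 6907 genes met this on each array, and the correlation of log2 levels between the 2 arrays of a group was 0.9855 to 0.994 over the 7395 genes tested, those above background on at least 2 arrays. All 11 T cell and Th2 markers checked, among them Cd3e, Gata3 and Il4, were tested, and 10 of them were above background on all 16 arrays, while Cd4 was on 13. Of 15 markers of other cell types, 14 had an entry and none was above background on more than 1 array, the B cell gene Ms4a1 being above it on 1.

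The DNA ahead of the 3 expressed members is shown because Akt acts on FOXO factors, and the family binds GC-rich sequence of the kind found there. Each line gives the 250 bases before the annotated start of the gene, 5′ to 3′ in the direction of transcription, from RefSeq on GRCm38.p6. The windows are chr13:5861239-5861488 on the plus strand for Klf6, chr1:64121390-64121639 on the minus strand for Klf7 and chr7:63938916-63939165 on the minus strand for Klf13. Capitals mark the GC box GGGCGG and the CACCC box, each on either strand.
Klf6: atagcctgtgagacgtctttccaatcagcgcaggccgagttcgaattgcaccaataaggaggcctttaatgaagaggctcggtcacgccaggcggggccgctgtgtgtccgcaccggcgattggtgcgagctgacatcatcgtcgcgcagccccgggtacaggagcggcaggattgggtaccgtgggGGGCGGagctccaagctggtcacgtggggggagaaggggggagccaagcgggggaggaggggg
Klf7: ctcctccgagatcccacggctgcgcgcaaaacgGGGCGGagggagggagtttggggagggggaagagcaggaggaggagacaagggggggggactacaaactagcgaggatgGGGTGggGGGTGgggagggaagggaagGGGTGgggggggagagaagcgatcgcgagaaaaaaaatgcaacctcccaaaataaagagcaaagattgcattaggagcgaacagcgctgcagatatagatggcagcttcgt
Klf13: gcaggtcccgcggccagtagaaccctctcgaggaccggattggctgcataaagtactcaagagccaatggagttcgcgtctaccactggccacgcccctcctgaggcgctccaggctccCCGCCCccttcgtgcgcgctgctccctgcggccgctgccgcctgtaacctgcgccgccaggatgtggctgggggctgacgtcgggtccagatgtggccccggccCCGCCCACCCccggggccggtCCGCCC

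The Klf6 window held 1 GC box, 63 bases before the start, and no CACCC box. The Klf7 window held 1 GC box and 3 CACCC boxes, all of the latter on the reverse strand. The Klf13 window held 3 GC boxes on the reverse strand and 1 CACCC box that shares bases with a GC box. Bases G and C made up 64.8% of the Klf6 window, 59.2% of the Klf7 window and 71.6% of the Klf13 window, against a median of 52.4% over 32851 mouse promoter windows. Promoter windows were given for 9 of the 10 listed members, all but Klf10. Of these 9 windows, 7 held a GC box and 6 a CACCC box, where 32.7% and 52% of all windows did. The forkhead core TGTTTAC, the sequence FOXO proteins bind, was searched on both strands as well. It occurred in 1 of the 9 member windows, that of Klf9, and in 3.17% of all windows. A match describes letters in this window and is not evidence of binding.

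Klf2 gave no signal above the negative controls. Its intensity in control cells was 120.8 at the lowest, 126.5 at the median and 131.8 at the highest of 8 arrays, and in Akti1/2-treated cells 105.7, 121.05 and 134.5. Its detection p was never below 0.237. The ranges of the 2 arms overlap, and neither stimulation nor Akti1/2 brought Klf2 out of the background on any array. Each gene has 1 entry in the table, so this describes the probes behind that entry.

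The other 5 dim members behaved likewise. Klf4, which restrains cell division in several tissues, lay between 108 and 143.8 over the 16 arrays. Klf9, a gene induced by glucocorticoid and thyroid hormones, lay between 104.3 and 138.7. Klf11 and Klf12 lay between 104.8 and 139.3 and between 111.3 and 140.2. Klf11 recruits the Sin3a corepressor and Klf12 the corepressor CtBP.

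Klf10, which is induced early by TGF-β in many cells, came closest to the limit. Its intensity ran from 108.1 to 153.6, with a lowest detection p of 0.0163 on an array of Akti1/2-treated cells. With a limit of 0.05 in place of 0.01, Klf10 would count as above background on 3 arrays and the other 5 genes on none. When the dim members were fitted with all genes of the table, 0 of the 6 were called in any of 13 comparisons by limma, and the lowest adjusted p was 0.107. Klf3, a CtBP-recruiting repressor, had no entry under its symbol or gene number. A predicted gene described as similar to BKLF, an older name of Klf3, was also at background on all 16 arrays, with intensities of 114.2 to 150.7.

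**Figure D1:**
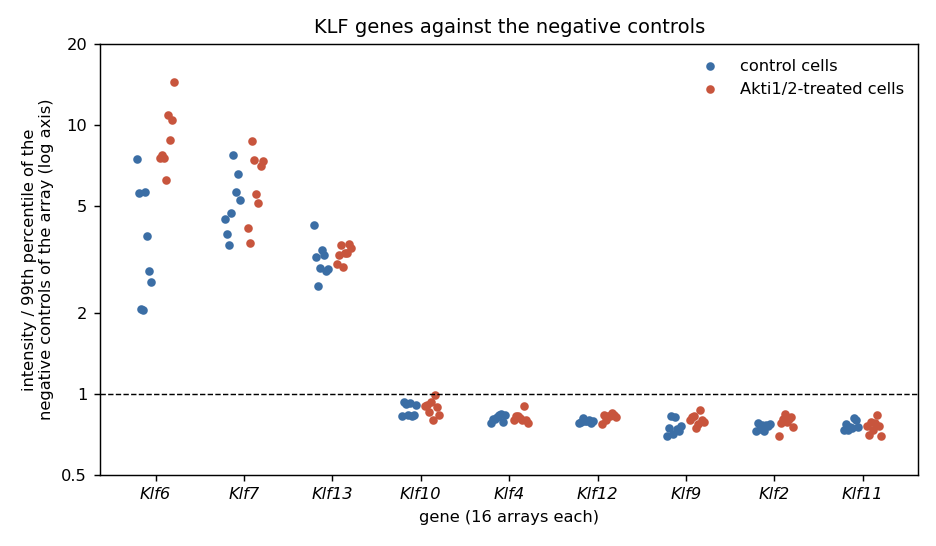
Intensity of each KLF gene divided by the 99th percentile of the negative controls of the same array (log axis), with 1 point per array, control cells in blue and Akti1/2-treated cells in red. All 16 points of Klf6, Klf7 and Klf13 lie above the dashed line at 1, and those of the other 6 genes lie below it.

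Klf6, a zinc finger activator known as a tumour suppressor and as a FOXO target, showed the widest changes. In control cells its intensity was 1302.2 and 903.3 on the 2 arrays at 0 h, 936.2 and 660.6 at 2 h, 494.5 and 428.6 at 6 h, ending with 346.0 and 354.7 at 12 h. In Akti1/2-treated cells it was 1218.9 and 1199.9 at 0 h, 1471.6 and 1320.1 at 2 h, 1460.9 and 2462.0 at 6 h, ending with 1257.3 and 979.7 at 12 h. The arms overlapped at 0 h on this scale, and at every later time both treated arrays were brighter than both control arrays. After normalization the 0 h levels did not overlap, with log2 values of 9.90 and 9.72 in control and 9.99 and 10.31 in treated cells.

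After background correction and quantile normalization, the mean log2 level of Klf6 in control cells was 9.81 ± 0.13 (SD, n = 2) at 0 h, 9.35 ± 0.21 at 2 h, 8.43 ± 0.07 at 6 h and 7.79 ± 0.10 at 12 h. Against 0 h the log2 difference was -0.46 at 2 h (limma adjusted p = 0.116), -1.38 at 6 h (SE 0.17, adjusted p = 0.000113), and it reached -2.02 by 12 h (adjusted p = 5.03e-06). Klf6 therefore fell 2.61-fold by 6 h and 4.05-fold by 12 h, and at 2 h the difference did not pass the test. Neighbouring times were compared after the levels had been seen. Klf6 fell from 2 to 6 h (log2 -0.93, adjusted p = 0.00399), where 14.6% of the genes tested were called. It fell again from 6 to 12 h (log2 -0.63, adjusted p = 0.0309), where 13.6% were called, but this second step was lost without either 6 h or either 12 h control array, with adjusted p up to 0.159, and with dim genes kept in the fit (adjusted p = 0.0579).

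With Akti1/2 the course was the opposite at first. The mean level was 10.15 ± 0.22 at 0 h, 10.71 ± 0.09 at 2 h, 10.83 ± 0.38 at 6 h and 9.91 ± 0.04 at 12 h. Klf6 rose against 0 h by 0.56 on the log2 scale at 2 h (adjusted p = 0.0241), with a further value of 0.68 at 6 h (adjusted p = 0.00988), which are 1.47-fold and 1.6-fold. The rise at 2 h was lost without Akti1/2 0 h replicate 1 (adjusted p = 0.171) or either 2 h array with Akti1/2 (0.0525 and 0.118), and the rise at 6 h without Akti1/2 0 h replicate 1 (0.0928) or Akti1/2 6 h replicate 2 (0.0982). At 12 h the level differed from 0 h by -0.24 (adjusted p = 0.292). The drop from 6 to 12 h was -0.92 (adjusted p = 0.00368), where 17.8% of the genes were called, while from 2 to 6 h, where 30.2% were called, Klf6 differed by 0.12 (adjusted p = 0.628).

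The direct comparison of the arms asks which genes Akt inhibition changed at each time. Before stimulation Klf6 differed by 0.34 on the log2 scale (95% interval -0.04 to 0.72, limma adjusted p = 0.981). It was 2.57-fold higher with Akti1/2 at 2 h (log2 1.36, adjusted p = 0.000236), 5.31-fold higher at 6 h (log2 2.41, adjusted p = 1.57e-06) and 4.35-fold higher at 12 h (log2 2.12, adjusted p = 1.51e-06). Each of the 2 chips held 1 array of each group, and within chip 1 and chip 2 the log2 differences were 1.15 and 1.57 at 2 h, 2.09 and 2.73 at 6 h, then 2.22 and 2.02 at 12 h. These 3 effects were called under all 23 limma alternatives.

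The change from 0 h with Akti1/2 minus that without, the interaction, asks whether the change from 0 h differed between the arms. At later times more time had also passed since the inhibitor was added, and no group was kept unstimulated past 0 h. An altered response to stimulation and a longer exposure to the inhibitor therefore cannot be told apart. For Klf6 the interaction was 1.02, 2.07 and 1.78 on the log2 scale (SE 0.25) at 2, 6 and 12 h, with limma adjusted p of 0.0269, 0.000248 and 0.00023. Klf6 thus moved differently in the arms at all 3 times. At 2 h the call was lost when any of 5 arrays was left out, control 0 h replicate 1 or 2, Akti1/2 0 h replicate 1, control 2 h replicate 2 or Akti1/2 2 h replicate 2, with adjusted p of 0.052 to 0.0965.

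Across the 8 groups the mean levels of Klf6 spanned 3.04 on the log2 scale, wider than for 99% of the genes tested, whose median span was 0.86. From high to low the groups ran Akti1/2 6 h, Akti1/2 2 h, Akti1/2 0 h, Akti1/2 12 h, control 0 h, control 2 h, control 6 h and control 12 h. All 4 Akti1/2 means lay above the highest control mean. Of the neighbours in this order, Akti1/2 2 h and 0 h, control 2 h and 6 h, and control 6 h and 12 h differed past the threshold, and the other pairs did not.

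**Figure D2:**
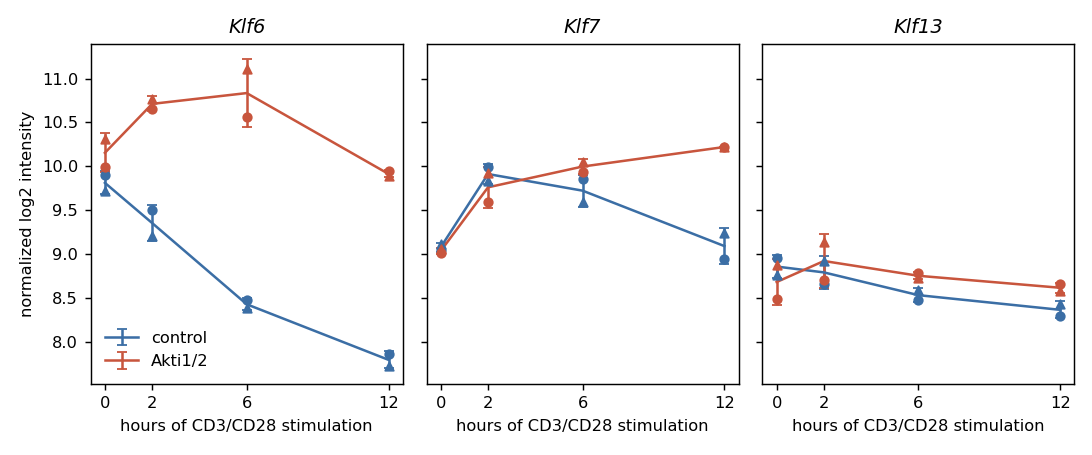
Normalized log2 intensity of Klf6, Klf7 and Klf13 against hours of CD3/CD28 stimulation, with circles for replicate 1, triangles for replicate 2, lines through the group means and bars of 1 SD (n = 2). The control line of Klf6 falls from 9.81 to 7.79 while the Akti1/2 line ends at 9.91. The lines of Klf7 differ most at 12 h, by 1.13, and those of Klf13 also differ most at 12 h, by 0.25.

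Klf7, the closest relative of Klf6 in the family and a factor needed for axon growth in neurons, rose with stimulation in both arms and parted late. In control cells its intensity was 779.1 and 633.0 at 0 h, 1280.9 and 964.9 at 2 h, 1133.6 and 858.5 at 6 h, ending with 598.6 and 808.1 at 12 h. In Akti1/2-treated cells it was 671.0 and 565.9 at 0 h, 748.7 and 771.8 at 2 h, 990.2 and 1255.3 at 6 h, ending with 1460.5 and 1165.0 at 12 h. At 12 h both treated arrays were brighter than both control arrays, and at 0 and 6 h the arms overlapped on this scale. At 2 h both control arrays were brighter before normalization, whereas the normalized levels overlapped, with 9.99 and 9.83 in control and 9.59 and 9.93 in treated cells. The normalized levels at 6 h did not overlap, with 9.85 and 9.59 in control and 9.94 and 10.05 in treated cells, and that difference was not called.

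In control cells Klf7 rose 1.78-fold by 2 h (log2 0.83, SE 0.14, limma adjusted p = 0.00284) and was 1.56-fold higher at 6 h (log2 0.64, adjusted p = 0.00502). At 12 h it differed from 0 h by 0.01 (95% interval -0.29 to 0.32, adjusted p = 0.961). The drop from 6 to 12 h was -0.63 (adjusted p = 0.0114), and it was lost without control 6 h replicate 1 or control 12 h replicate 1 (adjusted p up to 0.111). The 6 h rise was lost without control 6 h replicate 1 (log2 0.51, adjusted p = 0.057).

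With Akti1/2, Klf7 rose at each time, by 0.73, 0.96 and 1.19 on the log2 scale at 2, 6 and 12 h (limma, adjusted p of 0.00201, 0.000261 and 3.01e-05), the last being 2.27-fold. Between the arms the differences were -0.04 at 0 h (limma adjusted p = 0.993), -0.15 at 2 h (95% interval -0.46 to 0.16) and 0.27 at 6 h (95% interval -0.03 to 0.58, adjusted p = 0.147). At 12 h it was 2.19-fold higher with Akti1/2 (log2 1.13, adjusted p = 3.79e-05), and within the chips the log2 difference was 0.99 and 1.27. The interaction was 1.17 at 12 h (SE 0.20, adjusted p = 0.000861), against -0.11 and 0.32 at 2 and 6 h, which were not called (adjusted p of 0.774 and 0.289).

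The group means of Klf7 spanned 1.19 on the log2 scale, wider than for 74.3% of the genes tested. Akti1/2 12 h was highest at 10.22 ± 0.01 (SD, n = 2), and Akti1/2 0 h lowest at 9.03 ± 0.03. In between, from high to low, came Akti1/2 6 h, control 2 h, Akti1/2 2 h, control 6 h, control 12 h and control 0 h. Of the neighbours in this order only control 6 h and control 12 h differed past the threshold.

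Klf13, which recruits Sin3a and is known to activate the chemokine gene Ccl5 late after T cell activation, was the flattest of the 3. Its intensity in control cells was 738.1 and 523.4 at 0 h, 569.0 and 563.3 at 2 h, 494.0 and 476.1 at 6 h, ending with 423.4 and 506.1 at 12 h. With Akti1/2 it was 494.4 and 510.3 at 0 h, 451.8 and 503.5 at 2 h, 507.0 and 592.6 at 6 h, ending with 596.4 and 468.6 at 12 h. Both control arrays were the brighter ones at 0 and 2 h and both treated arrays at 6 h, and the arms overlapped at 12 h. After normalization the arms overlapped at 0 and 2 h, and at 2 h the mean was higher with Akti1/2 by 0.13 on the log2 scale (limma adjusted p = 0.585). The normalized levels did not overlap at 6 and 12 h. At 12 h they were 8.29 and 8.43 in control and 8.65 and 8.57 in treated cells.

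In control cells Klf13 was 1.41-fold lower at 12 h than at 0 h (log2 -0.49, SE 0.16, limma adjusted p = 0.0412). That call was lost in 9 of 23 alternatives, 8 of which left out 1 array (either one of control 0 h, 6 h or 12 h, or of Akti1/2 12 h), with adjusted p of 0.051 to 0.214. At 2 and 6 h the differences were -0.07 and -0.33 (adjusted p of 0.834 and 0.171). With Akti1/2 the differences from 0 h were 0.24, 0.07 and -0.07 at 2, 6 and 12 h, none past the threshold.

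No difference of Klf13 between the arms was called, the largest being 0.25 at 12 h (95% interval -0.11 to 0.61, limma adjusted p = 0.231). The interaction at 12 h was 0.43 (adjusted p = 0.182), 0.68 within chip 1 and 0.17 within chip 2. The group means spanned 0.56, wider than for 18.7% of the genes tested, from 8.92 in Akti1/2 2 h to 8.36 in control 12 h, and no neighbours in their order differed past the threshold.

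**Figure D3:**
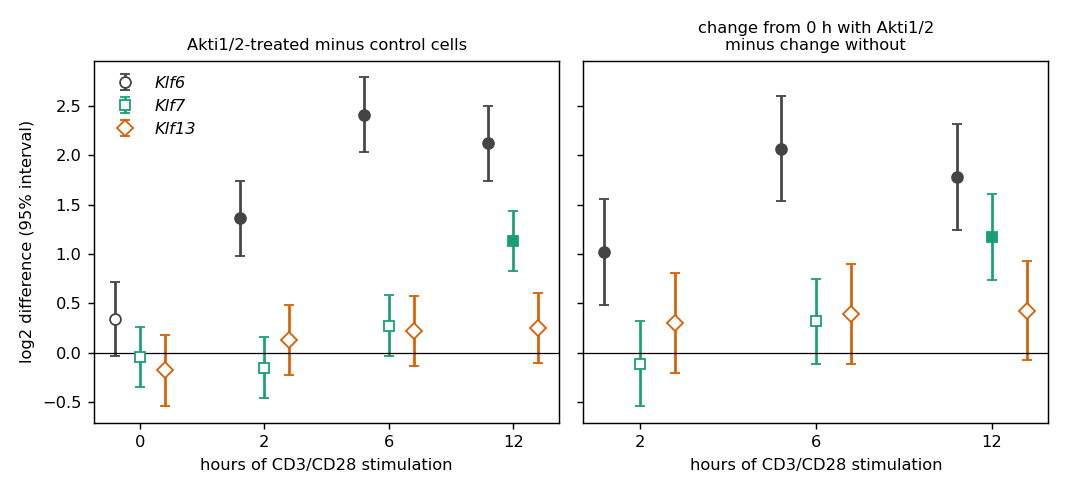
Log2 difference of Klf6, Klf7 and Klf13 between Akti1/2-treated and control cells at each time (left) and change from 0 h with Akti1/2 minus change without (right), with 95% intervals and filled symbols for an adjusted p under 0.05. Klf6 is filled at 2, 6 and 12 h in both panels, Klf7 at 12 h only, and Klf13 at no time.

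The 3 members tested were counted beside all genes tested. In control cells 1, 2 and 2 of 3 were called at 2, 6 and 12 h, where 10.3%, 27.5% and 27.8% of the 7395 genes were. With Akti1/2 it was 2, 2 and 1 of 3, beside 38.6%, 33.3% and 44.5%. Between the arms 0 of 3 were called at 0 h, beside 0.0541% of genes, and none had an unadjusted limma p under 0.05 either. At 2, 6 and 12 h it was 1, 1 and 2 of 3, beside 28.4%, 37.5% and 49%, and every call was higher with Akti1/2. For the interaction it was 1, 1 and 2 of 3, beside 8.41%, 19.5% and 32.5%. J5, the score of the study's methods, put 0 of 3 beyond 20 in the 10 comparisons it covers, which leave out the interactions. The same limit of 20 was used here at every time, whereas the methods speak of a threshold for each time point. Of all 18138 genes it put 0.673%, 0.728% and 0.645% there in control cells at 2, 6 and 12 h, 0.662%, 0.667% and 0.855% with Akti1/2, and 0.612%, 0.546%, 0.717% and 0.888% between the arms at 0, 2, 6 and 12 h. With 3 genes these counts cannot show a difference from the background. The time comparisons of an arm share its 0 h arrays, and so do the interactions.

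Beyond the listed members, 6 of 8 further KLF genes had an entry, and Klf16 alone was tested. Klf16, which represses through Sin3a, fell with stimulation at 5 of 6 times. In control cells the log2 differences from 0 h were -0.77, -0.48 and -0.31 at 2, 6 and 12 h (limma, adjusted p of 0.00254, 0.0147 and 0.0953), the last not past the threshold. In treated cells they were -0.47, -0.92 and -0.69 (adjusted p of 0.0128, 0.000188 and 0.000943). Its intensity at 6 h was 322.9 and 295.4 in control cells against 207.5 and 270 in treated cells. It was lower with Akti1/2 at 6 h (log2 -0.63, adjusted p = 0.00236) and at 12 h (log2 -0.57, adjusted p = 0.00278), opposite in sign to Klf6 and Klf7 at 12 h. Its interaction was called at no time. Klf1 and Klf5 were above background on 1 array each, and Klf8, Klf15 and Klf17 on none.

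The SP factors bind the same GC boxes as the KLF proteins. All 9 had an entry, and Sp1 alone was tested, being above background on 10 of 16 arrays and on neither control 12 h array. At 12 h it was at least 1.39-fold higher with Akti1/2 (adjusted p = 0.00928), the bound being set by the dimmest gene above background on each control array. Its interaction at 12 h was called as well (limma adjusted p = 0.036). That value rests partly on background, since only 1 array of each 0 h group was above it and neither control 12 h array was.

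Of 15 upstream regulators of KLF genes, 13 had an entry and 7 were tested. Foxo3, Foxo4 and Mapk7 were at background on all 16 arrays, and Foxo1 was above it on all. Foxo1 was higher with Akti1/2 by 0.64, 0.69 and 0.65 on the log2 scale at 2, 6 and 12 h (limma, adjusted p of 0.00991, 0.00391 and 0.00415), with no interaction called. This measures Foxo1 RNA and not the place or activity of the protein. Map2k5, the kinase upstream of Mapk7 on the route that induces Klf2 and Klf4 in endothelium, was higher with Akti1/2 at 12 h (log2 1.05, adjusted p = 6.59e-06) and had an interaction of 0.83 (adjusted p = 0.00121). The TGF-β receptor gene Tgfbr1 had a negative interaction at 2 h (log2 -0.73, adjusted p = 0.0148). Between the arms, calls at 2 h were 1 higher and 2 lower of 7 with Akti1/2, at 6 h they were 2 higher against 1 lower, and by 12 h there were 4 higher with 0 lower. The list medians were -0.27, 0.07 and 0.43 beside -0.01, -0.01 and -0.02 for all genes. Of all genes tested, 28.4%, 37.5% and 49% were called at these times in either direction. By direction, 13.6%, 18.8% and 24.2% were higher and 14.9%, 18.7% and 24.8% lower. The counts of these 7 genes were not tested against those shares.

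Among the corepressors and coactivators that KLF proteins recruit, 8 of 14 were tested. At 12 h, 4 of them were higher and 3 lower with Akti1/2, where 24.2% of all genes were higher and 24.8% lower. The list median was 0.12 beside -0.02 for all genes. The histone deacetylase Hdac2 was lower at 12 h (log2 -1.44, limma adjusted p = 1.57e-06), and its interaction was -0.62 and -1.32 at 6 and 12 h (adjusted p of 0.0234 and 0.00014). The acetyltransferase gene Kat2a also had a negative interaction at 12 h (log2 -1.11, adjusted p = 0.00392). The corepressor Ncor1 had a positive one at 12 h (log2 0.72, adjusted p = 0.0135), and the coactivator Ep300 at 6 h (log2 0.85, adjusted p = 0.0328). Kat2b, above background on neither control 12 h array, was at least 1.2-fold higher with Akti1/2 at 12 h (adjusted p = 0.00747), with an interaction called (adjusted p = 0.0124). This interaction rests partly on background as well, since only 1 array of each 0 h group was above it. Sin3a, the partner of Klf13 and Klf16, had no interaction called.

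All 14 listed targets of KLF proteins had an entry, and 4 were tested. The 10 others were at background on all 16 arrays, among them S1pr1 and Il7r, through which Klf2 is known to govern lymphocyte traffic and survival. With a limit of 0.05 in place of 0.01, Il7r, the IL-7 receptor chain, would count as above background on 4 arrays and the other 9 on none. The mean log2 level of Il7r was 5.09 ± 0.15, 5.29 ± 0.08 and 5.16 ± 0.14 (SD, n = 2) at 2, 6 and 12 h with Akti1/2, and lay between 4.65 and 4.72 in the other 5 groups. It was not tested, since it passed the limit of 0.01 on no array.

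Ccr7, the lymph node homing receptor, had intensities at 12 h of 189.6 and 204 in control cells, against 374.8 and 279.6 with Akti1/2. The treated arrays were brighter than the control arrays without overlap. The log2 difference was 1.02 and 1.37 at 6 and 12 h (limma, adjusted p of 0.000543 and 3.51e-05), and the interaction was 1.02 and 1.36 (adjusted p of 0.0109 and 0.00106). Ccr7 was above background on 14 arrays, with 1 array of each 0 h group below the limit.

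Cdkn1a, the cell cycle inhibitor p21 and a known target of Klf4 and Klf6, went the other way. Its intensity at 6 h was 681.4 and 646.8 in control cells, against 284.1 and 385.7 with Akti1/2. It was lower with Akti1/2, the log2 differences being -0.91, -1.32 and -1.34 at 2, 6 and 12 h (limma, adjusted p of 0.00189, 6.84e-05 and 3.13e-05), and the interaction was -1.14 and -1.16 at 6 and 12 h (adjusted p of 0.00477 and 0.0024).

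Itgb7, an integrin chain for gut homing, was on the list of KLF targets. It fell in control cells by 0.97 on the log2 scale at 12 h (limma adjusted p = 0.000162). In treated cells it fell by 0.43 (adjusted p = 0.0166). Its interaction at 12 h was 0.54 (adjusted p = 0.0372). Ccl5, the known target of Klf13, rose in control cells by 0.70, 1.02 and 0.73 at 2, 6 and 12 h (limma, adjusted p of 0.0404, 0.00215 and 0.0139). With Akti1/2 it differed from 0 h by 0.30 at 2 h (adjusted p = 0.243) and rose by 0.68 and 0.80 at 6 and 12 h (adjusted p of 0.0172 and 0.00509), and its interaction was called at no time. Over the 4 targets, 2 were higher and 1 lower with Akti1/2 at 12 h, where 49% of all genes were called, 24.2% higher and 24.8% lower. The median was 0.38 beside -0.02 for all genes.

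**Figure D4:**
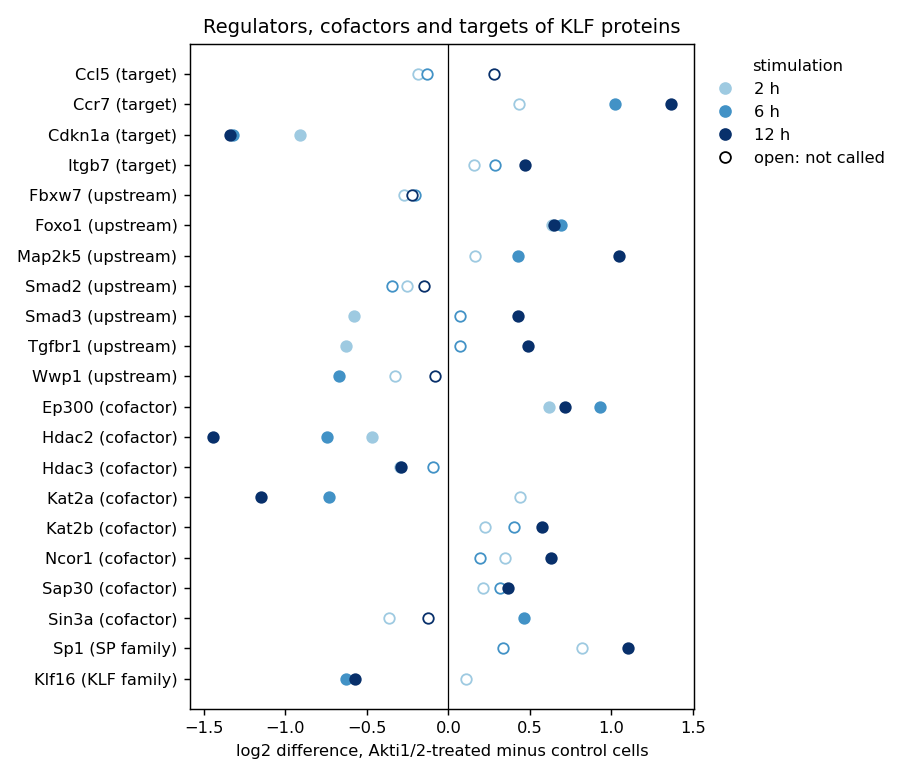
Log2 difference between Akti1/2-treated and control cells at 2, 6 and 12 h for the 21 tested genes of the lists of targets, upstream regulators, cofactors, SP factors and other KLF genes, filled where the adjusted p was under 0.05 and open otherwise. Ccr7, Foxo1 and Map2k5 lie to the right of 0 at each time and Cdkn1a and Hdac2 to the left, while Tgfbr1 and Smad3 change side between 2 and 12 h.

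Genes with a pattern like that of a member were found by Pearson correlation of log2 levels over the 16 arrays, which share groups, chips and normalization, so r is a description. Nearest to Klf6 were Sh3kbp1 (r = 0.969), an adaptor for the ubiquitin ligase Cbl, and Mocs1 (r = 0.966), which makes molybdenum cofactor. Nearest to Klf7 were the antiproliferative gene Btg1 (r = 0.94) and LOC100047353 (r = 0.923). The latter is a predicted gene described as similar to myocardial vascular inhibition factor, and whether it is a transcript separate from Btg1 was not tested. Nearest to Klf13 were Slain1 (r = 0.861) and Rfwd3 (r = 0.822).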

How the data were processed

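RNA of D10 cells in 8 groups of 2 was hybridized to 16 Illumina mouse RefSeq arrays. The authors deposited bead intensities summarized as 1 value per gene and array, without normalization or background subtraction per the file headers, with 832 control entries, 798 of them negative. A second control table was not used here.

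Detection p was computed against the negative controls. The 7395 genes for which it was below 0.01 on 2 or more arrays entered the tests. Intensities were corrected and normalized with neqc (offset 16, quantile, log2) and fitted in limma 3.58.1 under R 4.3.3, with all 8 groups in 1 model without a block (8 residual and 4.26 prior degrees of freedom) and Benjamini-Hochberg adjustment over all genes tested in each of 13 comparisons, called under 0.05. The number of arrays limits the precision. Steps were tested on simulated data. The paper's score, J5, has no error term and was an alternative (threshold 20 at every time), beside other normalizations, filters, blocks, a fit of only the groups compared and leaving out each array.

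Members and lists were chosen with earlier results of these data known. The text names all members, up to 6 genes per list called in the interaction, in order of p, targets above background on all arrays, and the 2 genes most correlated with each tested member. Others named from the lists were chosen after their values were seen. Promoter windows came from RefSeq (GRCm38.p6).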

Additional observations from a re-analysis of the deposited data

Results flagged for a closer look

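The effect of Akti1/2 on Klf6 differed between stimulated cells and cells at 0 h by the interaction term of the limma fit, by 1.02, 2.07 and 1.78 on the log2 scale at 2, 6 and 12 h, with adjusted p of 0.0269, 0.000248 and 0.00023. Both chips gave a positive value at each time, the lowest being 0.98 at 2 h and the highest 2.13 at 6 h. The effect on Klf7 differed in the same way at 12 h, by 1.17 (adjusted p = 0.000861), with 1.02 and 1.33 within the chips. Groups of 2 arrays are too small for a check of single arrays that stand apart.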

How the results depend on the processing

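No member value changed direction past the threshold under any alternative. The count of members called fell from 2 to 1 at 2 h with Akti1/2 when arrays were scaled to the same mean (Klf6 0.46, limma adjusted p = 0.0524), at 12 h in control cells without a filter on dim genes (Klf13, adjusted p = 0.0785) and at 6 h with Akti1/2 when only the groups compared were fitted (Klf6, adjusted p = 0.0807). By J5 beyond 20, 0 members were called in the 10 comparisons other than the interactions, where 0.546% to 0.888% of all genes were, and the largest score was 17.85 for Klf6 between the arms at 6 h, at percentile 99.1 of all genes. Leaving out each array gave counts of 1 to 2 in control cells at 2, 6 and 12 h and with Akti1/2 at 2 and 6 h, and 0 to 1 for the interaction at 2 h. Klf6 in control cells at 2 h was called only without either Akti1/2 6 h array (-0.46, adjusted p = 0.05 and 0.0494), and Klf13 in control cells at 6 h only with mean scaling (-0.47, adjusted p = 0.0383). Mean scaling moved the median of all genes to 0.12 in the interaction at 6 h. With the replicate block the Klf6 interactions were 1.02, 2.07 and 1.78 (adjusted p = 0.0339, 0.000457 and 0.000436) and that of Klf7 at 12 h was 1.17 (adjusted p = 0.00129), and neither this nor the chip block changed a member call. Arrays with the same number lie on the same chip in 7 of the 8 groups, the 12 h control arrays being crossed. The correlation of deviations between same-numbered arrays ran from -0.296 to 0.264 over 28 pairs of groups (median 0.017), so the numbers were not taken as pairs. Where a call was lost, the cause was not tested, apart from the smaller number of arrays or groups in the fits that left some out.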
